A study of Mus musculus with 9 samples.

Results

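RNA of the stathmin family and of a group of neuronal genes was followed across 3 mouse cell lines, none of which is a neuron. The set holds 10 of the 19938 genes measured: Stmn1, Stmn2, Stmn3, Stmn4, Tubb3, Gap43, Dcx, Prmt8, Grik3 and Ap3b2. Each gene was found by its symbol in the annotation of the array and is represented by its brightest probe set, the probe group that measures 1 transcript. Stmn2, Prmt8, Grik3 and Ap3b2 were selected because the line derived from P19 lies outside both of the others, so their levels in that line are given as a description without a test. The other 6 genes were not selected by that difference.

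Total RNA was hybridised to 9 Affymetrix GeneChip Gene 1.0 ST arrays, with 3 for each line. P19 is a mouse embryonal carcinoma line, the malignant stem cell type of teratocarcinomas. The second line is labelled only as pluripotent stem cells derived from P19 and was taken as P19 NTES7, 1 ES-like line grown out of a blastocyst that was cloned by moving a P19 nucleus into an oocyte. R1 is a mouse embryonic stem (ES) cell line. No genetic or drug treatment is labelled for any line, and all were kept in the same ES medium with 15% FBS and 1000 units/ml of leukemia inhibitory factor (LIF), which keeps mouse ES cells undifferentiated. Per the methods, P19 NTES and other pluripotent stem cell lines were grown on mouse embryonic fibroblasts as feeder cells, which are not named for P19. Feeder use thus goes with the difference between P19 and both other lines and cannot be told apart from it. Per the design notes, feeder cells were cleared before collection. P19 NTES7 is 1 cloned line, so that a difference between lines concerns these 3 lines only. Replicate arrays are labelled as biological, without a statement on separate cultures, and p-values therefore measure only the spread between arrays, which may be technical.

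Stathmins are small phosphoproteins that bind tubulin dimers and promote the disassembly of microtubules, the filaments along which chromosomes and axonal cargo move. Stmn1 is found in many dividing cells, whereas Stmn2, Stmn3 and Stmn4 are mainly neuronal and are held at membranes. Many neuronal genes, Stmn2 among them, are kept low outside the nervous system by the repressor REST. P19 cells are known as a model in which neurons form after retinoic acid, an agent that the labels do not list here.

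Intensities are on the linear scale after Robust Multichip Average (RMA) and are comparable between arrays for 1 probe set, not between probe sets. As a scale for weak signal, olfactory receptor genes, which are not expected in these cells, were used: 95% of their 1035 probe sets lay under 13.8 (P19), 14.6 (P19 NTES7) and 14.6 (R1), called the background level below. Folds over a value under that level are not exact. Replicate arrays correlated at 0.989 to 0.998 over all probe sets (Pearson r of log2 values), and R1 replicate 3 stood farthest from its replicates. A gene was called differentially expressed where the adjusted p from limma was under 0.01 and the fold change over 2. Of all genes, 3.85% were called higher and 3.46% lower in R1 than in P19. For P19 NTES7, the calls took 1.44% (higher) and 1.38% (lower) of genes against P19, and 1.68% (higher) and 2.84% (lower) against R1. The 3 arrays of each line had no overlap in 47.4% of genes between R1 and P19, in 36.2% between P19 NTES7 and P19, and in 39.0% between P19 NTES7 and R1. The share of all genes with an unadjusted p under 0.05 was not counted. Counts at that limit, given below for the gene lists, therefore cannot be read as a trend of a list.

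The 3 lines expressed the stathmins in different orders, with Stmn1 lowest in R1 and Stmn2 lowest in P19 NTES7. Stmn1 was read at 1551, 1424 and 1424 on the P19 arrays, at 1140, 1095 and 1121 on the P19 NTES7 arrays and at 726, 732 and 752 on the R1 arrays. The lines therefore ranked P19, P19 NTES7, R1, and no array of a line reached into the range of the next. The log2 difference between R1 and P19 was -0.99 ± 0.088 (SE, n = 3 arrays a line), which passed the p limit (adjusted p = 1.11e-06) but, at 1.99-fold, missed the fold limit. It passed that limit with the arrays centred on their medians (-1.02) and without P19 replicate 2, P19 replicate 3 or R1 replicate 3 (-1.01 each). Between P19 NTES7 and P19 the difference was -0.39 ± 0.088 (adjusted p = 0.0067), and between P19 NTES7 and R1 0.60 ± 0.088 (adjusted p = 0.00017), again under the fold limit. Another probe set of the gene gave -0.94, -0.34 and 0.60 for the same comparisons, so that the order of the lines did not depend on the probe set, although the middle one then missed the p limit (adjusted p = 0.0232).

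Stmn2, the neuronal stathmin of growing axons, was clearly above the background level in all lines. Its intensities were 256, 261 and 320 in P19, 292, 309 and 316 in R1, and 101, 102 and 86.3 in P19 NTES7. P19 and R1 overlapped, with a log2 difference of 0.14 ± 0.112 (adjusted p = 0.389), while every P19 NTES7 array lay below every array of both other lines. The mean of P19 NTES7, 96.2 ± 8.57 (SD), was 2.89-fold under that of P19, 279 ± 35.9, and 3.18-fold under that of R1, 306 ± 12.3. These folds are the values by which the gene was selected. In bulk RNA of this kind, fewer cells that express a gene and less RNA in each cell cannot be told apart.

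Stmn3 and Stmn4, the other neuronal stathmins, were close to the background level. Stmn3 gave 14.8, 18.1 and 18.8 in P19, 13.9, 14.7 and 14.5 in P19 NTES7 and 15.3, 15.5 and 17.6 in R1, and none of its differences was called (adjusted p from 0.134 to 0.573). Stmn4 gave 16.1, 16.5 and 24.1 in P19, 10.5, 10.5 and 11.8 in P19 NTES7 and 11.4, 10.2 and 10.3 in R1. Only the P19 arrays thus lay above the background level, and they overlapped with neither of the other lines. The log2 difference of Stmn4 from P19 was -0.80 ± 0.141 in R1 (adjusted p = 0.000536) and -0.76 ± 0.141 in P19 NTES7 (adjusted p = 0.00174), both under the fold limit, and P19 NTES7 and R1 differed by 0.04 ± 0.141 (adjusted p = 0.88). P19 replicate 3 was the highest array for both Stmn3 and Stmn4.

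**Figure D1:**
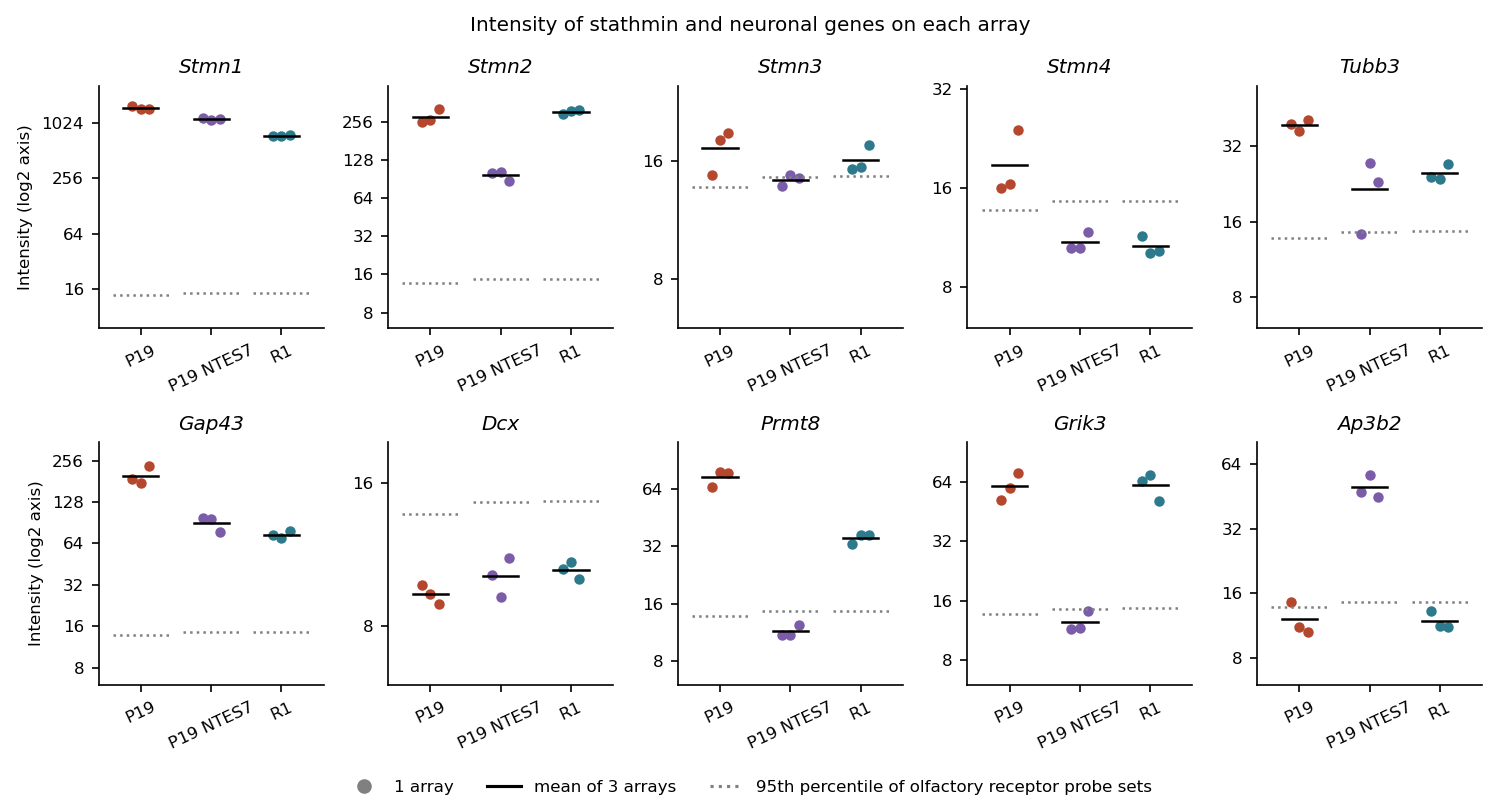
Intensity (log2 axis, separate for each gene) of the 10 genes on each of the 9 arrays, with points for arrays, solid lines for the mean of 3 arrays and dotted lines for the background level of each line. Stmn2, Prmt8 and Grik3 were lowest and Ap3b2 highest in P19 NTES7, by which they were selected, whereas Stmn1, Stmn4, Tubb3 and Gap43 had their highest mean in P19.

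Among the other genes of the neuronal cytoskeleton, Gap43 was called and Tubb3 and Dcx were not. Gap43, a membrane phosphoprotein of growth cones, was at 190, 175 and 233 in P19, at 98.6, 96.8 and 77.1 in P19 NTES7 and at 74.0, 70.0 and 78.9 in R1. All P19 arrays were above those of the other lines, which overlapped with each other. Gap43 was 2.67-fold lower in R1 than in P19 (log2 difference -1.42 ± 0.128, adjusted p = 1.38e-06) and 2.19-fold lower in P19 NTES7 than in P19 (-1.13 ± 0.128, adjusted p = 3.24e-05). Between P19 NTES7 and R1 the difference of 0.28 ± 0.128 was not called (adjusted p = 0.136).

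Tubb3, the beta-tubulin used as a marker of young neurons, was at 39.4, 36.8 and 40.6 in P19, at 14.3, 27.3 and 23.1 in P19 NTES7 and at 24.1, 23.7 and 27.1 in R1. P19 stood above both other lines without overlap, and the first P19 NTES7 array lay just under the background level, far from the other 2. The log2 difference from P19 was -0.64 ± 0.181 in R1 (adjusted p = 0.0145) and -0.90 ± 0.181 in P19 NTES7 (adjusted p = 0.00312), neither of them called. Without the first P19 NTES7 array, the latter became -0.63 (adjusted p = 0.00266), near that of R1, and was not called. P19 NTES7 and R1 then differed by 0.011, so the lower mean of P19 NTES7 than R1 rests on that array. Without the second P19 NTES7 array instead, the difference between P19 NTES7 and P19 became -1.10 (adjusted p = 0.00107) and was called. A pseudogene copy, Tubb3-ps1, is annotated, and its signal cannot be told apart here. Dcx, which stabilises microtubules in migrating neurons, was between 8.87 and 11.1 on all 9 arrays, under the background level in each line, and was called in no comparison (adjusted p from 0.22 to 0.802).

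Counted together, 2 of the 10 genes, Gap43 and Prmt8, were called between R1 and P19, both lower in R1. Of the 6 genes that were not selected on P19 NTES7, 1 was called between P19 NTES7 and P19, which is Gap43, and 0 between P19 NTES7 and R1. In that last comparison, 2 of the 6 had an unadjusted limma p under 0.05, and 0 were called by a one-way analysis of variance. Without the fold limit, Stmn1, Stmn4 and Tubb3 also passed the p limit between P19 NTES7 and P19, and Stmn1 between P19 NTES7 and R1. The arrays of these 6 genes did not overlap for 5 between R1 and P19, for 5 between P19 NTES7 and P19 and for 2 between P19 NTES7 and R1. With 6 genes, these counts are too small to be set apart from the shares of all genes given above.

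**Figure D2:**
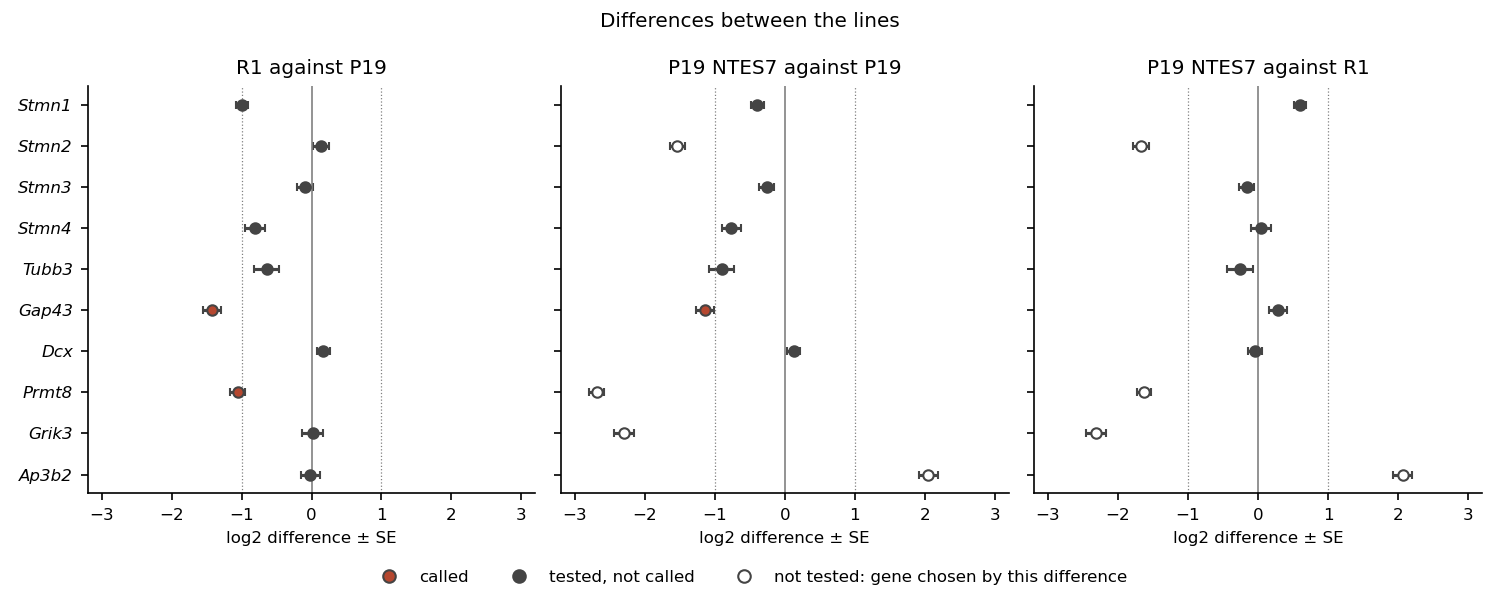
Log2 difference of each of the 10 genes in the 3 comparisons (x axis, first line minus second), with standard errors from limma, and dotted lines at the 2-fold limit. Filled red points were called, grey points were tested and not called, and open points were not tested because the gene was selected by that difference. Gap43 and Prmt8 lay below the limit in R1 against P19, and Gap43 in P19 NTES7 against P19.

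The other 3 selected genes act in protein methylation, synaptic signalling and vesicle sorting. Prmt8 encodes an arginine methyltransferase that is anchored to membranes and known mostly from brain, Grik3 a subunit of kainate receptors, a class of ionotropic glutamate receptors, and Ap3b2 the neuronal beta subunit of the AP-3 adaptor complex. Of all genes, 0.191% were called below both other lines in P19 NTES7, the pattern by which Stmn2, Prmt8 and Grik3 were chosen, and 0.256% above both, that of Ap3b2. Promoter windows from RefSeq (GRCm38.p6, 250 bases before to 50 bases after the start of the transcript) were found for 6 of the 10 genes: Ap3b2, Dcx, Grik3, Prmt8, Stmn3 and Tubb3. Those of the 3 selected genes among them are shown because 2 of these genes were lowest and 1 was highest in P19 NTES7. They are printed 5′ to 3′ on the strand of the gene, with each CG dinucleotide (CpG), the site of DNA methylation in mammals, in capitals.
Grik3, chr4:125490446-125490745, plus strand: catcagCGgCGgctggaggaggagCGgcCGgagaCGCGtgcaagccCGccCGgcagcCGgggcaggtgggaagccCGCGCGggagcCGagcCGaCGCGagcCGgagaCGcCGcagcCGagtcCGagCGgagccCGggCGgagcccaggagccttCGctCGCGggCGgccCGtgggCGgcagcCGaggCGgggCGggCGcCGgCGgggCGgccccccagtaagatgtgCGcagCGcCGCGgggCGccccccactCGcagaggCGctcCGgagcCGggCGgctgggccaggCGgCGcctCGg
Prmt8, chr6:127769106-127769405, minus strand: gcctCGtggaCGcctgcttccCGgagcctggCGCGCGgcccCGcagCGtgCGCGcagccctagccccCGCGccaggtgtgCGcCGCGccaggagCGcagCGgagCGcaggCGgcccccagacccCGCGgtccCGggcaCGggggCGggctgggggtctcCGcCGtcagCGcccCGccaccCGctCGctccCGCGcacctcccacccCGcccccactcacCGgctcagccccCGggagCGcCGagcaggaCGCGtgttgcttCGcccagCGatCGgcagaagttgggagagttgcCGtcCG
Ap3b2, chr7:81493876-81494175, minus strand: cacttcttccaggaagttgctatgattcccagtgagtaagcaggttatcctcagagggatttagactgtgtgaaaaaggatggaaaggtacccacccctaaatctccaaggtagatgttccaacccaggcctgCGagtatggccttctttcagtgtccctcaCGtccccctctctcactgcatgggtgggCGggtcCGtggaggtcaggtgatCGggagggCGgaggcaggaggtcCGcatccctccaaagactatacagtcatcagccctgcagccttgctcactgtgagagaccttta

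The windows of Grik3 and Prmt8 are among the richest in CpG, and that of Ap3b2 is ordinary. The Grik3 window holds 50 CpG and has a GC content of 82.0%, and 99.1% of the 32851 windows in the RefSeq table hold fewer. The Prmt8 window holds 44 (GC 79.0%, more than 97.8% of windows), and the Ap3b2 window 7 (GC 54.3%), which is also the median of all windows. Among the genes that were not selected, the window of Tubb3 holds 26 CpG, that of Stmn3 6 and that of Dcx 3. These counts describe sequence of the reference genome, and the arrays measured no methylation.

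Prmt8 separated all 3 lines. It was at 65.5, 78.3 and 77.3 in P19, at 32.9, 36.7 and 36.5 in R1 and at 10.95, 10.99 and 12.4 in P19 NTES7, where it lay under the background level. R1 was 2.08-fold lower than P19, a comparison that did not select the gene (log2 difference -1.06 ± 0.105, adjusted p = 3.20e-06, arrays without overlap). That call is close to the fold limit and was lost after quantile normalization of the arrays, with a log2 difference of -0.99, and with 16 added before log2 (-0.80). The means in P19 NTES7 were 6.43-fold under P19 and 3.09-fold under R1, or -1.71 and -0.90 on the log2 scale with 16 added.

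Grik3 was at 52.1, 59.9 and 71.4 in P19 and at 64.6, 69.7 and 51.0 in R1, and these lines overlapped over their whole range (log2 difference 0.02 ± 0.144, adjusted p = 0.952). In P19 NTES7 it was at 11.5, 11.6 and 14.1, under the background level on every array, with a mean 4.91-fold under P19 and 4.96-fold under R1 (log2 differences of -1.43 and -1.45 with 16 added). A transcript that gave clear signal in the parent line and in R1 was thus not told apart from background in the P19 NTES7 samples. Ap3b2 was the opposite case. It was at 47.5, 57.1 and 45.0 in P19 NTES7, against 14.5, 11.2 and 10.6 in P19 and 13.2, 11.2 and 11.1 in R1. The P19 and R1 means of 12.1 ± 2.13 and 11.9 ± 1.18 lay under the background level and differed by -0.02 ± 0.136 (log2, adjusted p = 0.94). The P19 NTES7 mean was 4.15-fold above P19 and 4.20-fold above R1 (log2 differences of 1.23 and 1.24 with 16 added).

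Over the 9 arrays, the Pearson correlation of log2 values was 0.98 between Stmn2 and Grik3, 0.88 between Stmn2 and Prmt8 and -0.98 between Stmn2 and Ap3b2. Outside the selected genes, Gap43 correlated with Stmn4 at 0.92 and with Stmn1 at 0.87, while Stmn1 and Stmn2 gave -0.20. The arrays fall into 3 lines, which these correlations mostly describe, and the first 3 values follow from the selection.

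The genes whose values were most like those of the selected ones over the 9 arrays were ranked among the 1874 genes whose line means span at least 1 log2 unit. Atad2b, a bromodomain ATPase gene, was closest to Stmn2 (r = 0.99), with means of 130 ± 20.8 (P19), 44.4 ± 5.99 (P19 NTES7) and 143 ± 4.10 (R1). Fgf15, a fibroblast growth factor gene, came next for both Stmn2 (r = 0.99) and Grik3 (r = 0.99), at 148 ± 6.44, 40.2 ± 3.402 and 150 ± 9.50 in the same order. Kif13a, a kinesin gene, followed for Stmn2 (r = 0.99). P19 and R1 had like means for the first and second of these, and P19 NTES7 was lower. For Grik3, the closest was Gucy1a2, a soluble guanylate cyclase subunit (r = 0.99), and then came Tenm4, a teneurin of neuronal membranes (r = 0.98), at 56.1 ± 7.73, 15.5 ± 0.287 and 44.7 ± 3.88.

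Prmt8 was followed most closely by Pipox, an enzyme of pipecolic acid oxidation (r = 0.98), at 116 ± 5.07 (P19), 31.7 ± 0.591 (P19 NTES7) and 70.2 ± 13.6 (R1), and then by the deubiquitinase gene Usp46 (r = 0.98) and the forkhead gene Foxp1 (r = 0.98). These share with Prmt8 an R1 level between those of the other lines. The genes most like Ap3b2 were Them5, a mitochondrial thioesterase gene (r = 0.99), at 9.87 ± 0.561, 81.8 ± 9.83 and 9.53 ± 0.968, then Nxf3, of the RNA export factor family (r = 0.99), and Tapbp, which encodes tapasin of antigen loading (r = 0.98). Them5 and Nxf3, like Ap3b2, were above the background level in P19 NTES7 only, while Tapbp was expressed in all lines at 68.5 ± 10.1, 168 ± 11.1 and 67.7 ± 3.29.

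**Figure D3:**
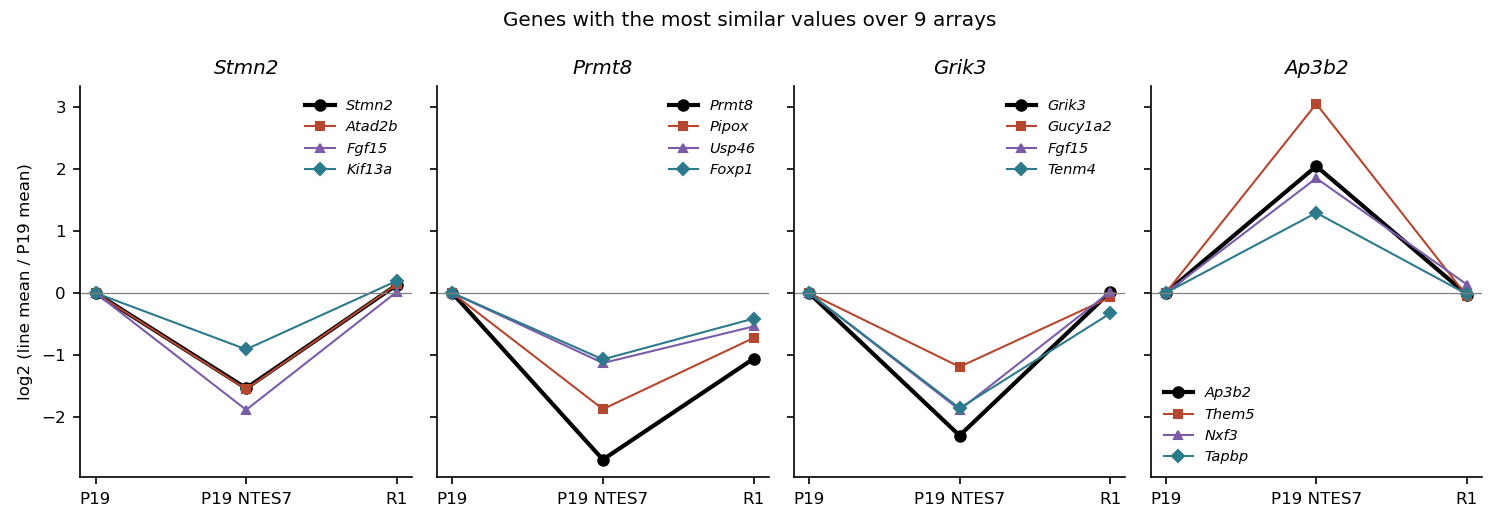
Log2 of the mean of each line over the P19 mean (y axis) for the 4 selected genes (black) and the 3 genes most correlated with each over 9 arrays (colours). Stmn2, Grik3 and their closest genes dip in P19 NTES7 and lie near P19 in R1, Prmt8 and its closest genes lie between in R1, and Ap3b2 and its closest genes peak in P19 NTES7, a pattern by which all of them were chosen.

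The list of microtubule proteins of neurons, which also holds genes not particular to neurons such as Tubb5, had calls in 1 direction against P19. Of 28 measured microtubule proteins of neurons (31 listed), 0 were called higher and 7 lower in R1 than in P19 (3 and 15 at an unadjusted p under 0.05). Between P19 NTES7 and P19, 0 were higher and 4 lower (0 and 16 unadjusted), and between P19 NTES7 and R1, 2 were higher and 3 lower. The shares called over all genes were 3.85% (higher) and 3.46% (lower) in R1 against P19. For P19 NTES7 they were 1.44% and 1.38% against P19, and 1.68% and 2.84% against R1. A one-way analysis of variance called 3 in each of the 3 comparisons. The median log2 differences of the list were -0.29, -0.30 and 0.01, against 0.02, 0.02 and 0.01 for all genes. Kif5c, a kinesin motor of axonal transport, fell from 79.5 ± 12.02 in P19 to 22.4 ± 5.22 in R1 and 30.8 ± 2.09 in P19 NTES7. Dpysl2 (CRMP2), a tubulin-binding protein of axon growth, fell from 215 ± 13.6 to 75.3 ± 14.9 and 91.3 ± 14.5. Both were called in the comparisons with P19 (adjusted p = 6.03e-07 and 3.16e-05 for Kif5c, 2.53e-06 and 4.84e-05 for Dpysl2). Map1b, a microtubule-associated protein of growing axons, was at 577 ± 22.7 in P19, at 296 ± 11.9 in R1 and lowest in P19 NTES7 with 177 ± 15.4, and was called between P19 NTES7 and P19 (log2 difference -1.71 ± 0.097, adjusted p = 6.43e-08). Dclk2, a doublecortin-like kinase, was lower in R1 alone, at 37.7 ± 8.01 against 104 ± 10.7 in P19 and 85.8 ± 7.26 in P19 NTES7.

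Growth cone genes, the group of Gap43, were called in both directions. All 20 listed were measured, and 3 were called higher and 3 lower in R1 than in P19 (all genes: 3.85% and 3.46%). For P19 NTES7, the counts were 2 higher and 4 lower against P19 (all genes: 1.44% and 1.38%). Against R1 they were 2 higher and 3 lower (all genes: 1.68% and 2.84%). The median log2 differences of the list were -0.40, -0.40 and -0.14. Cap2, an actin-regulating protein, fell from 68.4 ± 15.3 in P19 to 16.3 ± 3.79 in R1 and 25.7 ± 1.83 in P19 NTES7. Enah, an actin regulator at the leading edge, and Nrp2, a neuropilin that receives semaphorins, were highest in R1, at 636 ± 13.7 and 84.7 ± 8.28, against 190 ± 11.3 and 23.0 ± 3.74 in P19 and 140 ± 19.3 and 24.1 ± 0.9 in P19 NTES7. Nrcam, a neuronal adhesion molecule, stood out in P19 NTES7 as Ap3b2 did, at 117 ± 9.84 against 34.7 ± 3.998 in P19 and 27.2 ± 8.35 in R1 (adjusted p = 9.66e-06 and 8.13e-07). Crmp1, of the same list, was called below both other lines in P19 NTES7, as in the pattern of Stmn2. It was at 49.8 ± 12.4 there, against 169 ± 10.1 in P19 and 98.8 ± 6.10 in R1 (adjusted p from limma = 2.09e-06 and 0.000169).

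The relatives of Prmt8, Grik3 and Ap3b2 were mostly not called, which holds for all genes as well. Of all genes, 3.85% were called higher and 3.46% lower in R1 than in P19. For P19 NTES7 the shares were 1.44% and 1.38% against P19, and 1.68% and 2.84% against R1. With few genes in each list, the counts below are too small to be set apart from these shares. Of the 8 other arginine methyltransferase genes, Prmt9 was called lower in R1 than in P19 (194.6 ± 5.63 to 85.2 ± 1.36, adjusted p = 5.49e-07) and 0 were called in either comparison of P19 NTES7 by limma or the analysis of variance. At an unadjusted p under 0.05, for which no share of all genes was counted, 6 of the 8 were lower in P19 NTES7 than P19, and 1 higher and 2 lower than R1. Of 17 measured ionotropic glutamate receptor genes (19 listed), 0 were called higher and 2 lower in R1 than in P19 (2 and 8 unadjusted). P19 NTES7 had 0 higher and 1 lower against P19 (1 and 8 unadjusted), and 1 higher and 0 lower against R1 (2 and 2 unadjusted). The analysis of variance called 1 in R1 against P19, 0 in P19 NTES7 against P19 and 1 in P19 NTES7 against R1. Grik5, another kainate receptor subunit, was at 68.0 ± 3.90 (P19), 40.3 ± 3.96 (P19 NTES7) and 17.2 ± 2.96 (R1), so that its lowest line was R1 and not P19 NTES7. Gria4, an AMPA receptor subunit, fell from 34.8 ± 6.13 in P19 to 16.7 ± 3.01 in R1 and 15.2 ± 0.977 in P19 NTES7. Of the 6 other AP-3 subunits, which are ubiquitous except Ap3m2, 0 were called against P19 in either line (1 higher and 3 lower in R1, 2 higher and 1 lower in P19 NTES7 at an unadjusted p under 0.05, 0 by the analysis of variance), and Ap3s1, a small subunit, was called higher in P19 NTES7 than R1 (458 ± 49.5 against 184 ± 16.4, adjusted p = 1.15e-06). Ap3b1, the ubiquitous counterpart of Ap3b2, was at 201 (P19), 215 (P19 NTES7) and 169 (R1) and was not called. The median log2 differences (R1 against P19, P19 NTES7 against P19, P19 NTES7 against R1) were -0.24, -0.36 and -0.07 for the methyltransferases, -0.24, -0.05 and 0.05 for the receptors and -0.10, 0.12 and 0.22 for AP-3.

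**Figure D4:**
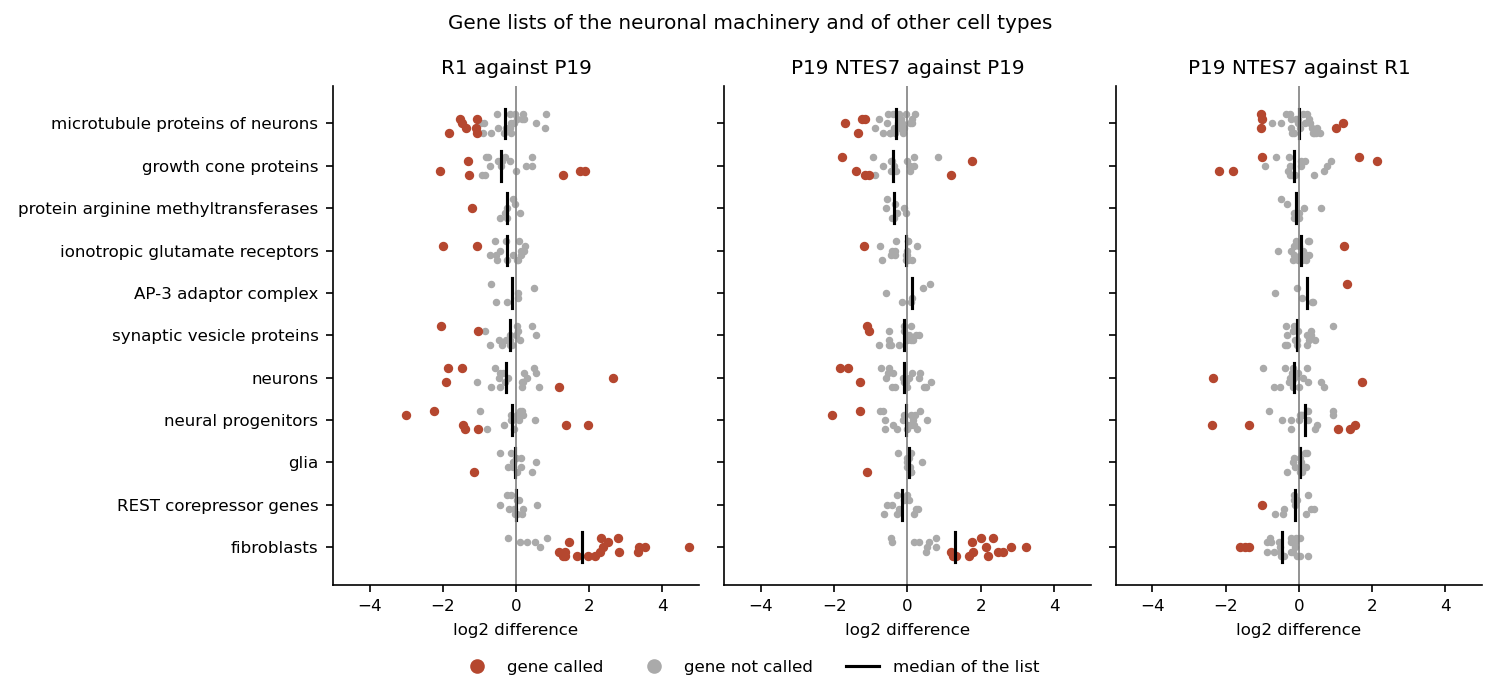
Log2 difference of each measured gene (points) of 11 gene lists in the 3 comparisons, red where called and grey where not, with the median of each list as a black bar. Growth cone, neuron and progenitor genes had red points on both sides in R1 against P19, and all lists shown but that of fibroblasts had medians within 0.5 of 0, whereas the fibroblast list lay well to the right in both comparisons with P19. The lists of pluripotent cells and of extraembryonic endoderm are not drawn.

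Most of the other neuronal, progenitor and glial genes were not called in a given comparison. Over all genes, the calls were 3.85% (higher) and 3.46% (lower) in R1 against P19. For P19 NTES7 they were 1.44% and 1.38% against P19, and 1.68% and 2.84% against R1. Of 22 measured genes of neurons (23 listed), 2 were called higher and 3 lower in R1 than in P19. Thy1, among the former, is also a fibroblast marker. P19 NTES7 had 0 higher and 3 lower against P19 (3 and 10 unadjusted) and 1 higher and 1 lower against R1, with medians of -0.26, -0.10 and -0.15. The analysis of variance called 3, 2 and 1 in the same order of comparisons. Summed over the list, the intensity ranged from 788 to 831 (P19), from 671 to 705 (P19 NTES7) and from 1019 to 1083 (R1). Bright probe sets weigh most in such a sum, in R1 above all that of Ina, so it does not rank the lines in neuronal RNA. Ina, the neurofilament protein internexin, was highest in R1, at 380 ± 63.0 against 60.5 ± 10.8 in P19 and 74.8 ± 8.07 in P19 NTES7. The RNA-binding protein Elavl3 (80.3 ± 4.16 in P19), the neurofilament Nefm (37.5 ± 1.53) and the synuclein Sncb (52.6 ± 18.4) were called lower in both other lines, at 22.5 ± 4.51, 15.3 ± 2.25 and 16.6 ± 3.82 in P19 NTES7 and 28.7 ± 0.655, 10.1 ± 1.08 and 14.0 ± 0.415 in R1. Of the 22 genes, 18 (P19), 15 (P19 NTES7) and 14 (R1) lay above the background level, among them Uchl1 at 135 to 154 and Elavl2 at 66.7 to 97.2. The neuronal markers Mapt, Elavl4 and Isl1 were under the background level in all lines, and Rbfox3 (NeuN) was at 14.8 to 18.3. These 6 were named after their values had been seen.

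Of 17 measured synaptic vesicle genes (20 listed), 0 were called higher and 2 lower in R1 than in P19 (2 and 7 unadjusted). The counts for P19 NTES7 against P19 were 0 and 2 (1 and 7 unadjusted), and against R1 0 and 0 (6 and 4 unadjusted, 0 by the analysis of variance, which called 1 in each comparison with P19). Both were synaptotagmins: Syt11 fell from 184 ± 7.80 in P19 to 85.8 ± 6.64 in P19 NTES7 and 45.9 ± 14.5 in R1, and Syt1, the calcium sensor of vesicle release, from 25.5 ± 5.68 to 12.2 ± 1.71 and 12.3 ± 0.883. Of 20 measured genes of neural progenitors (22 listed), 2 were called higher and 5 lower in R1 than in P19. P19 NTES7 had 0 higher and 2 lower against P19 (3 and 8 unadjusted), and 3 higher and 2 lower against R1. Zic1, a zinc finger factor of neural development, fell from 94.9 ± 10.8 in P19 to 22.5 ± 2.28 in P19 NTES7 and 11.8 ± 0.118 in R1, and the RNA-binding protein Msi1 from 132 ± 8.05 to 53.6 ± 6.95 and 28.2 ± 2.78. Neurod1, a proneural factor, was above the background level only in R1 (51.7 ± 9.44), and Sox4 was lower in R1 alone (69.4 ± 6.81 against 187.5 ± 7.43 in P19 and 204 ± 39.5 in P19 NTES7). Of 12 measured glial genes (13 listed), the glutamate transporter Slc1a3 was the 1 called, lower in R1 and in P19 NTES7 (31.7 ± 1.45 and 32.4 ± 2.58) than in P19 (71.4 ± 17.1), and the analysis of variance called 0 in both comparisons.

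The repressor REST, under whose control Stmn2 is known to stand, was measured in all lines without a call. Rest was at 690.5 (P19), 565 (P19 NTES7) and 622 (R1) (adjusted p from 0.169 to 0.5). Of 12 measured genes of REST and its corepressors (13 listed), 0 were called against P19 in either line (1 higher and 2 lower in R1, 1 higher and 4 lower in P19 NTES7 at an unadjusted p under 0.05, 0 by the analysis of variance), and Rcor2, a CoREST family gene, was called lower in P19 NTES7 than R1 (183 ± 29.9 against 364 ± 31.6, adjusted p = 6.96e-05), a 2.00-fold difference that the analysis of variance did not call. The list's median log2 differences were 0.00, -0.16 and -0.12. Against P19, 3.85% (higher) and 3.46% (lower) of all genes were called in R1, and 1.44% and 1.38% in P19 NTES7.

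Markers of fibroblasts, the usual feeder cells, moved with the line as well. Of 24 measured, 18 were called higher and 0 lower in R1 than in P19 (all genes: 3.85% and 3.46%). P19 NTES7 had 15 higher and 0 lower against P19 (all genes: 1.44% and 1.38%). Against R1 it had 0 higher and 3 lower (all genes: 1.68% and 2.84%). In P19, 14 of the 24 lay above the background level, and in each of the other lines 22. Their summed intensity ranged from 1370 to 1423 (P19), 2606 to 3254 (P19 NTES7) and 3670 to 4147 (R1), and Dcn (decorin) was at 8.45, 80.6 and 232. The means of Stmn1, Stmn4 and Gap43 rank in the reverse order of the fibroblast sums, and those of Stmn2, Stmn3, Tubb3, Dcx, Prmt8, Grik3 and Ap3b2 do not. The part of such cells in the differences of the stathmin and neuronal genes and of the other genes called against P19 was not tested. Of 14 measured genes of pluripotent cells, 8 were called higher and 0 lower in R1 than in P19. P19 NTES7 had 7 higher and 1 lower against P19, and 0 higher and 8 lower against R1, and the median log2 differences were 2.15, 0.95 and -1.37. The 1 gene lower against P19 was Utf1, which was also called lower than R1, so that P19 NTES7 lay below both other lines. Its means were 471 ± 70.4 (P19), 73.5 ± 20.35 (P19 NTES7) and 584 ± 79.1 (R1). The 4 genes of this list with the largest differences, Dppa5a, Tfcp2l1, Esrrb and Zfp42, were called in all comparisons, highest in R1 and lowest in P19. Dppa5a, an RNA-binding protein gene of ES cells, was at 19.5 ± 1.64 (P19), 125 ± 10.2 (P19 NTES7) and 2238 ± 196 (R1). Pou5f1 (Oct4) and Sox2, which define pluripotent cells, were called in no comparison and lay well above the background level in each line, at 1471 and 542 in P19 NTES7, 1470 and 884 in R1 and 2196 and 665 in P19. Of 10 measured genes of extraembryonic endoderm, 1 was called, Gata6, which was higher in P19 NTES7 (35.8) than P19 (17.6).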

How the data were processed

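RNA of P19, P19 NTES7 and R1 cells (3 arrays each) was analysed from the deposited table of intensities. Per the labels and methods, the authors used 100 ng of total RNA an array and normalized with RMA. The deposited intensity values are linear, with array medians of 16.5 to 17.5, so they do not carry the scaling to a set median given in the methods. They were used as deposited, without further background correction or normalization.

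Of 28853 probe sets, 21789 had 1 gene symbol in the platform annotation, 1621 several and 5443 none. Those with 1 symbol gave 19938 genes, each by its brightest probe set (mean log2 over 9 arrays), and 21698 of these probe sets matched a gene of GRCm38.p6 by Entrez ID. In limma (3.58.1, under R 4.3.3), a mean for each line was fitted to the log2 intensities of every probe set, with the 9 arrays in 1 fit, where the methods state a one-way analysis of variance. P-values were adjusted by Benjamini-Hochberg over all probe sets of a comparison. Counts called by the analysis of variance use p-values of the test over all 3 lines, adjusted in the same way. The methods state a limit of p under 0.01 and name no adjustment. In R1 against P19, the analysis of variance called 1388 genes with unadjusted p and 1196 with adjusted p. Levels carry the SD over 3 arrays, log2 differences their limma standard error, and folds are 2 to the power of the log2 difference. The number of arrays limits the precision. The fit was tested on simulated data. The members and gene lists were chosen with earlier results of these data known. From each list, up to 4 called genes with the largest log2 difference were named, and further genes were named after their values were seen. Alternatives covered normalization, an offset of 16 before log2, a filter on low values, the arrays fitted, variance settings, the analysis of variance, a replicate block, the choice of probe set and each array left out.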

Additional observations from a re-analysis of the deposited data

How the results depend on the processing

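All called and selected differences of the 10 genes kept their direction under every alternative in which the gene was tested. With 16 added before log2, the differences of the selected genes shrank: Stmn2 became -1.52 (P19 NTES7 against R1), Prmt8 -1.71 against P19 and -0.90 against R1, Grik3 -1.43 and -1.45, and Ap3b2 1.23 and 1.24. The call of Prmt8 in R1 against P19 was then lost (-0.80), as it was after quantile normalization (-0.99). Stmn1 in R1 against P19 passed the fold limit with the arrays centred on their medians (-1.02), without P19 replicate 2 or 3 (-1.01 each) and without R1 replicate 3 (-1.01), and Tubb3 in P19 NTES7 against P19 without P19 NTES7 replicate 2 (-1.10). Small differences that were not called changed sign: Grik3 in R1 against P19 became -0.009 with median-centred arrays, and leaving out 1 array gave -0.094 to 0.147 for it and -0.108 to 0.122 for Ap3b2, and, in P19 NTES7 against R1, -0.013 to 0.094 for Stmn4, -0.456 to 0.011 for Tubb3 and -0.113 to 0.025 for Dcx. The genes called numbered 1457 in R1 against P19, 564 in P19 NTES7 against P19 and 900 in P19 NTES7 against R1, and 728, 240 and 455 with 16 added. Leaving out 1 array gave 1442 to 1574, 546 to 591 and 893 to 975. Arrays of the same number did not deviate together (correlations from -0.22 to 0.04), and with a replicate block the counts were 1458, 562 and 897. A filter on low values removed genes below the median, so some members have no value there. Genes near the background level allow no exact fold.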

Other observations

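The genes that neighbour the 10 members in the genome (the 2 nearest measured genes on each side, by the RefSeq order of GRCm38.p6) were looked at after the values of the members had been seen. Cpeb1, which encodes a regulator of mRNA polyadenylation and lies next to Ap3b2, was at 31.3 (P19), 79.0 (P19 NTES7) and 14.0 (R1). Like Ap3b2 it was highest in P19 NTES7, with log2 differences of 1.33 against P19 (adjusted p from limma = 4.10e-06) and 2.504 against R1 (adjusted p = 4.90e-09), but unlike Ap3b2 it also separated R1 from P19 (-1.17, adjusted p = 4.04e-06). The other neighbours of Ap3b2 were not called higher in P19 NTES7, and Pde8a was called lower there than in R1 (-1.05). Of the neighbours of Stmn2, Prmt8 and Grik3, 4 for each, 0 were called in either comparison of P19 NTES7. Of all genes, 1.44% were called higher and 1.38% lower against P19, and 1.68% and 2.84% against R1. So few neighbours cannot be set apart from these shares. Hey1 next to Stmn2 and Parp11 near Prmt8 were called lower in R1 than in P19 (-1.27 and -1.19). Dpysl2, described above, lies next to Stmn4, and both had their highest mean in P19. Around Dcx, which was under the background level throughout, the nearest gene on one side, the calpain gene Capn6, was at 36.4 (P19), 22.4 (P19 NTES7) and 9.64 (R1), called lower in R1 than in both other lines, and Pak3 beyond it was called lower in P19 NTES7 than P19 (-1.19). On the other side Mir680-2 was not called, and beyond it Alg13, a gene of protein glycosylation, was at 292 (P19), 626 (P19 NTES7) and 867 (R1) and was called higher in both of the latter than in the first.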
